A study of Chlamydomonas reinhardtii with 90 samples.

Results

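RNA levels of the green alga Chlamydomonas reinhardtii were compared between 8 h and 4 h of recovery at 25°C after 24 h at 40°C. The comparison used 6 of the 90 libraries of the series, chosen by their labels alone, with 3 biological replicates at each time that carry the letters A, B and C, and all 17741 genes of the count table. The cultures were wild-type CC-1690 (21gr, mt+), grown with acetate under constant light in turbidostatic photobioreactors, kept at 25°C before the heat. The other libraries cover the earlier and later times of the same treatment and a parallel treatment at 35°C in different photobioreactors, which passed through the same recovery times. A level below is the normalised CPM, the reads of a gene over all reads of tested genes after TMM scaling, which sets libraries to one scale by the bulk of their genes. Levels in CPM are not divided by gene length and are compared only within a gene. In RNA from whole cultures, fewer cells in a given state and less RNA per cell cannot be told apart.

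Chlamydomonas divides by multiple fission: cells grow through a long G1 phase and then run through rounds of DNA replication and mitosis, after which each daughter builds a new cell wall of hydroxyproline-rich glycoproteins. Origins of replication are licensed by the origin recognition complex, CDC6, CDT1 and the MCM helicase. The alga can live from light through photosystems, their antennae and the Calvin-Benson cycle, and from acetate through acetyl-CoA synthetase and the glyoxylate cycle, which feeds gluconeogenesis.

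The 6 libraries held 17384526 to 24776121 counted reads. Correlations of log2 CPM were 0.977 to 0.989 between replicates and 0.854 to 0.913 between the times, and replicate pairs differed by far more than counting noise (chi-square per gene 14.4 to 51.2), so all 6 were counted as separate samples. Without replicate A at 8 h, 2736 genes were called, 1271 higher and 1465 lower, the lowest total with any library left out; a group's count of 3 or more is given without a library where that moved it by more than 1.5 times. CBLP, the internal control of the study's RT-qPCR, stood at 1714, 1865 and 1763 CPM at 4 h and at 2349, 2076 and 2399 CPM at 8 h. Its log2 fold change was 0.35 ± 0.14 (SE, n = 3 per time; edgeR adjusted p = 0.027), under the fold threshold, and was -0.05 when libraries were scaled by their totals alone.

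A gene was called when edgeR's quasi-likelihood test gave a Benjamini-Hochberg adjusted p below 0.05, the log2 fold change passed 1 in size and the mean TPM differed by at least 1. Of 15541 genes tested, 3076 (19.8%) were called: 1423 (9.16%) were higher at 8 h and 1653 (10.6%) were lower. Cell wall glycoproteins had the highest median of the lists, 3.68 on the log2 scale, and every tested gene of replication licensing, of the replication fork and of chloroplast division fell. Many genes of photosynthesis, acetate use and chloroplast translation rose. The split between higher and lower depended on scaling: with library totals alone 888 genes were higher and 2856 lower, and with limma on log2(TPM + 1) 557 were higher and 2769 lower. These scalings moved the median of all genes from 0.06 to -0.34 and -0.39, so a group is read against that median. Where no share is given beside a group's counts for this comparison, 9.16% higher and 10.6% lower of all genes apply.

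**Figure D1:**
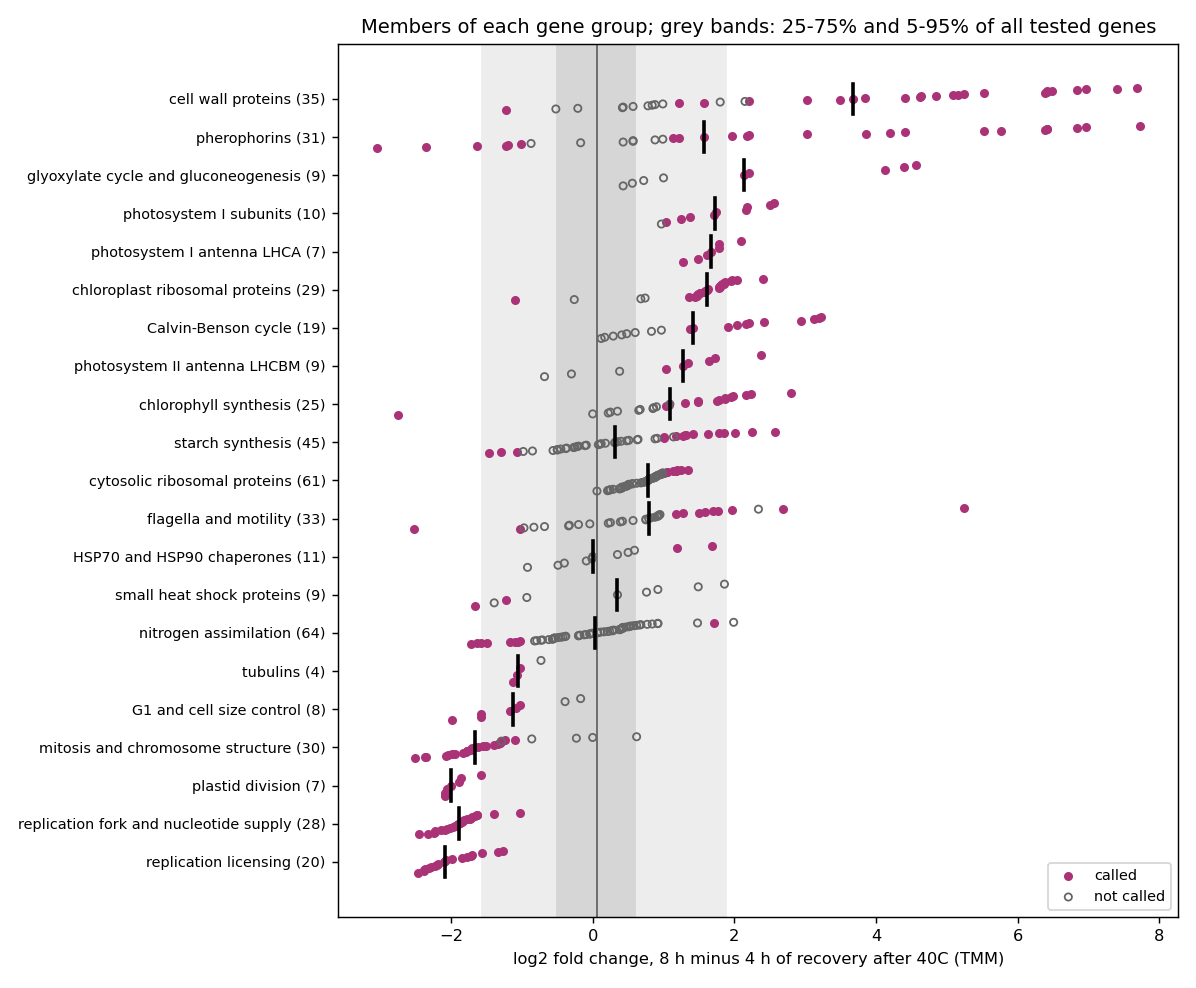
Each point is a gene, placed by its log2 fold change from 4 h to 8 h of recovery after 40C; filled points are called, bars mark the median of each group, numbers in brackets count the tested members, and the line with its bands marks the median, the 25th to 75th and the 5th to 95th percentile of all tested genes. The 20 licensing genes all lie left of the all-gene median of 0.06, while cell wall proteins reach 7.69.

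Cell wall proteins gave the widest shift. Of 35 genes listed as cell wall proteins, 23 rose and 1 fell, with a median log2 fold change of 3.68 against 0.06 over all genes tested. Their summed level went from 1725 to 2174 CPM at 4 h to 11373 to 18186 CPM at 8 h. The count of rises was 22 to 25 when each library was left out in turn, and 22 with library totals alone. In 31 of the 35 genes all 3 libraries at 8 h were above all 3 at 4 h, against 34.9% of all genes tested. The list was chosen with earlier results of these data known, so these counts are not independent evidence of direction.

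GAS28, a hydroxyproline-rich wall glycoprotein first described in gametes, measured 7.36, 2.34 and 12.6 CPM at 4 h and 2196, 1200 and 1202 CPM at 8 h. Replicate A was highest at 8 h but not at 4 h, and the times were far apart in every library. The log2 fold change was 7.69 ± 0.95 (SE; edgeR adjusted p = 3.6e-10). Its relative GAS30 was carried by 4 reads in all at 4 h and stood at 8.20, 8.47 and 7.65 CPM at 8 h. GAS31 stood at 324, 274 and 330 CPM at 4 h and at 634, 524 and 432 CPM at 8 h, a log2 fold change of 0.78 that was not called. VSP3, a wall protein of vegetative cells, measured 0.472, 0.511 and 0.280 CPM at 4 h and 49.6, 33 and 32.4 CPM at 8 h, so that both vegetative and gamete-named wall genes rose. GSP1 and FUS1, defining genes of plus gametes, were low at both times: GSP1 was at most 0.705 CPM at 8 h, and FUS1 was 3.68 to 5.97 CPM at 8 h with overlapping groups (log2 fold change 0.54, not called).

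Pherophorins, extracellular matrix glycoproteins of volvocine algae, moved in both directions. Of 31 tested genes with a PHC symbol, 16 of which are also among the cell wall proteins, 18 rose and 6 fell, with a median of 1.57. PHC5 had the largest rise of the genes with a symbol under the naming rule: 1.16, 0.751 and 0.806 CPM at 4 h against 277, 142 and 164 CPM at 8 h, a log2 fold change of 7.73 ± 0.36 (SE; edgeR adjusted p = 1.1e-27). PHC31, among the most abundant of them at 8 h, stood at 29.9, 10.9 and 74.3 CPM and then at 4357, 2693 and 2794 CPM. The 4 h libraries of PHC31 differed several-fold among themselves, yet the highest of them stayed far under the lowest 8 h library. PHC71, PHC19, PHC22, PHC68, PHC12, PHC4 and PHC15 rose by log2 fold changes of 6.96, 6.83, 6.41, 6.38, 5.77, 5.52 and 3.86. For PHC71 the 4 h level rested on 11 reads in all.

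PHC40 went the other way, from 844, 621 and 568 CPM to 88.2, 163 and 147 CPM (log2 fold change -2.35 ± 0.52, SE; edgeR adjusted p = 1.1e-04). PHC74 fell by 1.22 on the log2 scale. PHC16 fell by 3.05, and its call was lost without replicate A at 4 h (edgeR adjusted p = 0.026), where the TPM difference was under 1. UXS1, which makes UDP-xylose, a sugar donor for glycoproteins, rose from 174, 134 and 164 CPM to 750, 488 and 465 CPM. FAP212, named as a flagella-associated protein and also held by the cell wall list, rose from 40.4, 45.9 and 76.8 CPM to 2861, 1672 and 1634 CPM. ISG-C4 rose from 1.48, 2.71 and 1.93 CPM to 147, 124 and 170 CPM, with a log2 fold change of 6.16 ± 0.29.

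Genes of DNA replication fell together. All 20 tested genes of replication licensing and all 28 of the replication fork and nucleotide supply were lower at 8 h, with medians of -2.09 and -1.89, against 10.6% of all genes tested. In every one of the 48 the 3 libraries at 8 h lay below the 3 at 4 h, against 31% of all genes. These 2 lists, like those of mitosis, G1 and plastid division below, were taken from genes that the study had picked for differing in these samples, so the counts are not independent evidence of direction. Leaving out any library kept all 20 licensing calls and 27 or 28 of the fork calls.

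MCM7, a subunit of the replicative helicase, measured 171, 149 and 163 CPM at 4 h and 19.4, 40.9 and 27.3 CPM at 8 h. The 4 h libraries were close to each other, and at 8 h replicate A was lowest and B highest, the order seen in the other MCM genes. Its log2 fold change was -2.46 ± 0.31 (SE; edgeR adjusted p = 5.5e-10), the strongest fall of the group. MCM2, MCM3, MCM4, MCM5 and MCM6 fell by 2.31, 2.37, 2.38, 2.08 and 2.38 on the log2 scale. The origin recognition subunits ORC1 and ORC6 fell by 2.20 and 1.26, and the loading factors CDC6 and CDT1 by 2.28 and 2.1.

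At the fork, RIR1, the large subunit of ribonucleotide reductase, went from 715, 650 and 631 CPM to 100, 191 and 137 CPM. Its small subunit RIR2 went from 560, 517 and 542 CPM to 97.2, 173 and 110 CPM. PCN1, the sliding clamp, POLA1, the catalytic subunit of the priming polymerase, RFC1 of the clamp loader and TOP2, the topoisomerase that untangles DNA, fell by 2.05, 2.24, 2.22 and 1.93. RFA1, which binds single-stranded DNA, had the smallest fall, -1.02, and was -0.90 and no longer called without replicate A at 8 h.

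Mitotic genes followed with less uniformity: 25 of 30 fell, against 10.6% of all genes tested, none rose, and the median was -1.66. CDKB1, the mitotic cyclin-dependent kinase, went from 451, 312 and 306 CPM to 90.6, 126 and 93.5 CPM (log2 fold change -1.78 ± 0.46, SE; edgeR adjusted p = 8.9e-04). CYCAB1, a cyclin, went from 134, 146 and 136 CPM to 12.1, 35.3 and 32.8 CPM. CYCB1 went from 409, 409 and 390 CPM to 145, 207 and 140 CPM without overlap, but its log2 fold change of -1.29 ± 0.68 had an adjusted p of 0.10. CYCA1 fell by 1.30, and without replicate A at 4 h, A at 8 h or C at 8 h its adjusted p was 0.071, 0.069 or 0.11.

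CDKA1, the other main cell cycle kinase, and its partner CKS1 fell by 1.71 and 1.79. The inhibitory kinase WEE1 fell by 1.55. APC6 and CDC20, of the anaphase-promoting complex that ends mitosis, fell by 2.51 and 1.31, and separase ESP1 by 2.07. The condensin subunits SMC2 and SMC4 fell by 1.83 and 1.98, and GCP2 of the gamma-tubulin complex by 2.35.

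Of 8 genes of G1 and cell size control, 6 fell, against 10.6% of all genes tested, and none rose. MAT3, the retinoblastoma homologue that couples size to division, stood at 104, 104 and 105 CPM at 4 h and at 28.1, 39.7 and 37.2 CPM at 8 h. Its partners E2F1 and DP1 fell by 1.08 and 1.17. The D-type cyclins CYCD1, CYCD2 and CYCD3 fell by 1.98, 1.02 and 1.57; the log2 fold change of CYCD2 was -0.97 without replicate A at 4 h and -0.98 without A at 8 h, under the threshold.

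All 7 tested genes of plastid division fell, with a median of -2.00. FTSZ1 and FTSZ2, which form the chloroplast division ring, went from 157, 113 and 117 CPM to 20, 39.8 and 30.8 CPM and from 173, 132 and 126 CPM to 25.9, 45.6 and 35.5 CPM. MIND1 and MINE1, which place the ring, and ARC6, which anchors it, fell by 1.86, 1.58 and 1.89. No library at 8 h reached the lowest one at 4 h for any of these 7 genes, which held for 31% of all genes tested.

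The 4 tubulin genes, which build the spindle and the flagella, were lower at 8 h without overlap, as were 31% of all genes tested. TUA1 went from 4695, 4287 and 4097 CPM to 2394, 2083 and 1521 CPM. TUA1, TUB1 and TUB2 fell by 1.12, 1.07 and 1.03, and TUA2 had a log2 fold change of -0.73 that was not called. The 3 calls rested on replicate C at 8 h: without it the values were -0.96, -0.91 and -0.86, and TUB2 was also lost without A at 4 h, at -1.0. With library totals alone all 4 were called lower.

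Of 70 histone genes 27 passed the filter on low counts. Reads that map to more than 1 locus had been removed by the authors, so near-identical copies are uncertain. Of these 27, 8 rose and 2 fell. HTV1, 1 of the falling pair, went from 79.3, 70.4 and 80.3 CPM to 25.3, 36.5 and 24.9 CPM. The summed histone level went from 1073 to 1413 CPM to 383 to 570 CPM, opposite in sign to the median log2 fold change of 1.00, in which each copy counts equally. The rises numbered 5 to 7 with each library left out in turn, 5 of them without B at 4 h or C at 8 h, 5 with library totals alone and 1 with limma on log2(TPM + 1).

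Photosystem I genes rose together. Of 10 subunit genes 9 rose, and all 7 tested LHCA antenna genes rose, with medians of 1.73 and 1.67. PSAN, a peripheral subunit, stood at 131, 77.5 and 151 CPM at 4 h and at 888, 519 and 718 CPM at 8 h. PSAO1 rose from 251, 172 and 235 CPM to 1564, 997 and 1194 CPM. PSAF, which docks plastocyanin, measured 1073, 814 and 1107 CPM and then 2264, 1681 and 1932 CPM without overlap, but its log2 fold change of 0.97 stayed just under the threshold. LHCA1 went from 337 ± 96.3 CPM to 1448 ± 294 CPM (SD, n = 3) without overlap (log2 fold change 2.1 ± 0.16, SE; edgeR adjusted p = 2.6e-17), and LHCA9 rose by 1.27.

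The photosystem II antenna was less uniform: 6 of 9 LHCBM genes rose, with a median of 1.28. LHCBM6 went from 581, 425 and 620 CPM to 3360, 2370 and 2680 CPM. LHCBM1 rose by 1.04, and was 0.97, 0.94 and 0.97, under the threshold, without replicate A at 4 h, B at 4 h or A at 8 h. LHCBM8 went from 35.7, 56.7 and 39.5 CPM to 24.7, 33.7 and 24.0 CPM, and LHCBM9 had overlapping groups between 16.0 and 29.7 CPM; neither was called. LHCBM genes are near-identical in part, and only reads with 1 locus were counted. With library totals alone 3 of the 9 rose and 1 fell.

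Of 5 photosystem II subunit genes 3 rose. PSBP1 and PSBO, of the oxygen-evolving complex, rose by 1.54 and 1.09, and PSBO was 0.89 without replicate B at 4 h and 0.99 without A at 8 h. All 7 tested genes of the cytochrome b6f complex and chloroplast ATP synthase rose, by 1.21 for ATPC, the gamma subunit, to 2.3 for PETM, a small b6f subunit. Scaling by library totals alone left 4 of the 7 and 1 of the 3.

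Carbon fixation rose in 11 of 19 tested genes of the Calvin-Benson cycle, with none lower and a median of 1.42. PGK1, phosphoglycerate kinase, went from 91.3, 52.6 and 52.5 CPM to 803, 532 and 492 CPM (log2 fold change 3.22 ± 0.19, SE; edgeR adjusted p = 1.7e-22). SEBP1, sedoheptulose bisphosphatase, went from 106, 68.0 and 62.0 CPM to 890, 591 and 679 CPM. RCA1, Rubisco activase, GAP3, glyceraldehyde phosphate dehydrogenase, and FBA3, an aldolase, rose by 3.13, 2.42 and 2.17. RBCS1, a small subunit of Rubisco, moved from 1122, 702 and 829 CPM to 1966, 1519 and 1244 CPM, a log2 fold change of 0.83 that was not called.

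Genes of acetate use rose steeply. Of 9 genes of the glyoxylate cycle and gluconeogenesis, 3 of them shared with the TCA list, 5 rose with a median of 2.14 over the 9. MAS1, malate synthase, went from 9.31, 23.3 and 27.4 CPM to 373, 465 and 577 CPM (log2 fold change 4.56 ± 0.58, SE; edgeR adjusted p = 7.0e-10). ICL1, isocitrate lyase, went from 34.3, 87.9 and 107 CPM to 1072, 1257 and 1683 CPM. PCK1, phosphoenolpyruvate carboxykinase, went from 12, 23.1 and 31.6 CPM to 311, 491 and 594 CPM. In these 3 genes replicate A was lowest at both times. Citrate synthase CIS2 rose by 2.14 and fructose bisphosphatase FBP1 by 2.20. ACS3, an acetyl-CoA synthetase outside the list and named after its values were seen, rose by 2.89 from 87.2, 141 and 172 CPM. PYC1, pyruvate carboxylase, had a log2 fold change of 0.72 and was not called.

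Of the 18 TCA cycle genes 4 rose, among them PDH2 of pyruvate dehydrogenase by 1.63, and of 51 genes of mitochondrial electron transport and ATP synthesis 4 rose, with a median of 0.48, against 9.16% of all genes tested. The rises numbered 2 and 1 when scaled by library totals alone, and 0 and 1 with limma on log2(TPM + 1). MCP28, a mitochondrial carrier, was an exception in size, from 0.346, 1.56 and 1.33 CPM to 38.1, 38.7 and 49.1 CPM. Of 19 genes of the CO2 concentrating mechanism 2 rose, near the 9.16% of all genes, and 4 rose without replicate A at 4 h. CAH3, the lumenal carbonic anhydrase, rose by 1.87. CAH1 overlapped between times, at 343 to 1373 CPM at 4 h and 700 to 1759 CPM at 8 h, and LCIB and LCI1 had log2 fold changes of 0.95 and 2.15 that were not called.

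Of 45 starch synthesis genes 13 were higher and 3 lower, against 9.16% and 10.6% of all genes tested. Of 18 degradation genes 2 went in each direction, near those shares. SSS3, a soluble starch synthase, STA1, a large subunit of ADP-glucose pyrophosphorylase, and GPM1, phosphoglucomutase, rose by 2.58, 1.42 and 2.01, while AGP2 fell by 1.46. Scaling by library totals gave 7 synthesis genes higher and 4 lower.

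Pigment synthesis rose in part. Of 25 tested chlorophyll genes 14 rose and 1 fell. CRD1, the cyclase of the chlorophyll ring, went from 32.1, 32.4 and 35.8 CPM to 254, 203 and 244 CPM (log2 fold change 2.80 ± 0.23, SE; edgeR adjusted p = 4.4e-16). CHLI1, of magnesium chelatase, rose by 2.24 and POR1, the light-dependent reductase, by 1.48, while CHLH1, the large chelatase subunit, had 0.85 and was not called. The 1 fall was PBGD2, a porphobilinogen deaminase, from 10.4, 12.1 and 10.9 CPM to 1.18, 1.98 and 1.74 CPM, the largest fall of any gene with a symbol by the naming rule (log2 fold change -2.75 ± 0.34). Of 20 carotenoid and isoprenoid genes 8 rose: CMS1, of the plastid isoprenoid pathway, by 3.02, GGPS, which makes the C20 precursor, by 2.70 and PDS1, phytoene desaturase, by 2.03. VDR1 and IDI1 stood at -0.89 and -0.82 and were not called. Library totals alone gave 5 higher and 2 lower, and limma on log2(TPM + 1) 3 higher and 2 lower.

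Most genes of chloroplast ribosomal proteins rose. Of 29 tested, 25 rose and 1 fell, with a median of 1.62; 24 rose with library totals alone and 13 with limma on log2(TPM + 1). PRPL19 went from 166, 114 and 140 CPM to 1023, 505 and 696 CPM, and PRPL7 rose by 1.82. PSRP1 and PRPS1 had log2 fold changes of 0.68 and 0.74 and were not called. Of 61 cytosolic genes 9 rose, against 9.16% of all genes tested, with a median of 0.78. In 59 of the 61 all libraries at 8 h lay above all at 4 h, against 34.9% of all genes. Without replicate A at 8 h, where RPL35 measured 3995 CPM against 1579 and 2219 CPM in B and C, RPL35 and RPL12 stood at 0.89 and 0.80 and were not called; RPL12 was also lost, at 0.93 to 0.98, without any 4 h library. The 9 rises became 2 without A at 8 h and 17 without B at 8 h, and none of the 61 was called with library totals alone.

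Flagellar genes that were called were mostly higher. Of 33 genes of flagella and motility 9 rose and 2 fell, of 66 genes with a FAP symbol 19 rose and 1 fell, of 6 IFT genes 3 rose and of 5 radial spoke genes 4 rose, against 9.16% of all genes tested. The flagella and FAP lists share 7 genes, and FAP212 is in both as well as in the cell wall list. IFT20 and IFT27, of intraflagellar transport, rose by 1.98 and 1.65, with replicate A of IFT20 at 136 CPM at 8 h and B and C at 51.1 and 48.5 CPM. RSP9 of the radial spokes rose by 1.5, and FAP310 rose from 86.4, 108 and 112 CPM to 2077, 1448 and 1702 CPM. FMG1-B, the major glycoprotein of the flagellar membrane, measured 1.32, 3.37 and 3.15 CPM at 4 h and 1.82, 4.06 and 5.86 CPM at 8 h. Those groups overlapped, and the pre-heat mean was 769 CPM. The radial spoke rises numbered 2 without replicate A at 8 h and 1 with library totals alone, and with limma on log2(TPM + 1) none of the radial spoke or IFT genes was called. Library totals alone gave 7 higher and 5 lower in the flagella list and 14 and 4 in the FAP list, and limma on log2(TPM + 1) gave 4 and 5, and 10 and 4. Rises were also seen after 35°C in the same interval, against 4.51% of all genes. They numbered 10 in the flagella list, 21 in the FAP list, 3 among IFT and 5 among radial spoke genes. Only the flagella list held falls there, 2 of them.

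Of 9 small heat shock genes 2 fell and none rose, and of 11 HSP70 and HSP90 genes 2 rose and none fell, counts near the 19.8% of all genes that were called. HSP22C fell from 19.3, 54.1 and 37.6 CPM to 5.10, 14.9 and 15.0 CPM, and HSP22E, a chloroplast protein, fell from 342, 710 and 591 CPM to 147, 268 and 289 CPM. HSP22E fell by 1.22, with adjusted p = 0.083 without replicate B at 4 h and 0.13 without A at 8 h. HSP22A overlapped between times, at 1.01 to 7.36 CPM and 3.46 to 9.71 CPM, and HSP22F had a log2 fold change of -0.93 that was not called. HSP22A has a near-identical neighbour, so its reads are uncertain. HSP90B of the endoplasmic reticulum rose from 213, 218 and 304 CPM to 624, 561 and 494 CPM, while cytosolic HSP70A and HSP90A had -0.40 and -0.49 and were not called.

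Among 60 genes of reactive oxygen scavenging 8 rose and 1 fell, against 9.16% and 10.6% of all genes, and with library totals alone 3 rose and 7 fell. Without replicate C at 4 h 5 rose and none fell, and without A at 4 h 6 rose and 3 fell. PRX1, a chloroplast peroxiredoxin, rose from 202, 148 and 206 CPM to 805, 632 and 727 CPM. CAT1, catalase, rose by 1.06, and was 0.97 without replicate A at 4 h and 1.00 without C at 4 h or C at 8 h, each time under the threshold. FSD1, iron superoxide dismutase, rose by 1.04, and was 0.83, 0.95 and 0.92 without A at 4 h, C at 4 h or A at 8 h. PAP2 went from 22.9, 71 and 77 CPM to 12, 29.5 and 32.4 CPM with overlap, and its adjusted p rose from 0.038 to 0.11, 0.14 and 0.20 without B or C at 4 h or A at 8 h. LHCSR1, a protein of energy quenching that is not in the scavenging list, rose from 0.377, 0.361 and 0.420 CPM to 5.97, 5.38 and 6.02 CPM. GST2, a glutathione transferase, had -0.90 and was not called.

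Of 64 tested genes of nitrogen assimilation 8 fell and 1 rose, against 10.6% and 9.16% of all genes. CNX5, of molybdenum cofactor synthesis, went from 20.6, 23.5 and 24.7 CPM to 5.61, 8.65 and 8.79 CPM. GDH1, glutamate dehydrogenase, and AMX2 fell by 1.17 and 1.49. Of 8 genes whose symbols match a pattern meant for proteasome subunits 2 fell, RPN6 by 1.00 and POC18 by 1.57. The pattern goes by letters alone, so POC18 is not shown to be a proteasome gene. RPN6 stood at -0.96 without replicate A at 8 h and -0.98 without C at 8 h. Under scaling by library totals 6 of the 8 fell.

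Genes without a symbol held some of the largest changes. Cre17.g717900 went from 3.65, 4.15 and 4.45 CPM to 2716, 1533 and 1681 CPM. Cre09.g397623 had 10 reads in all at 4 h and stood at 246, 160 and 142 CPM at 8 h. Cre07.g354750 had 1 read at 4 h and 2198 at 8 h, a ratio of normalised reads of 2974 with a 95% counting interval of 533 to 117530 (exact, counting error only). Falls were smaller: Cre03.g161150 went from 789, 437 and 478 CPM to 72.4, 99.9 and 84.6 CPM, and Cre11.g483351 and Cre17.g717550 fell by 2.63 and 2.58. TEF13, a gene with a symbol, went from 732, 818 and 844 CPM to 102, 190 and 159 CPM.

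**Figure D2:**
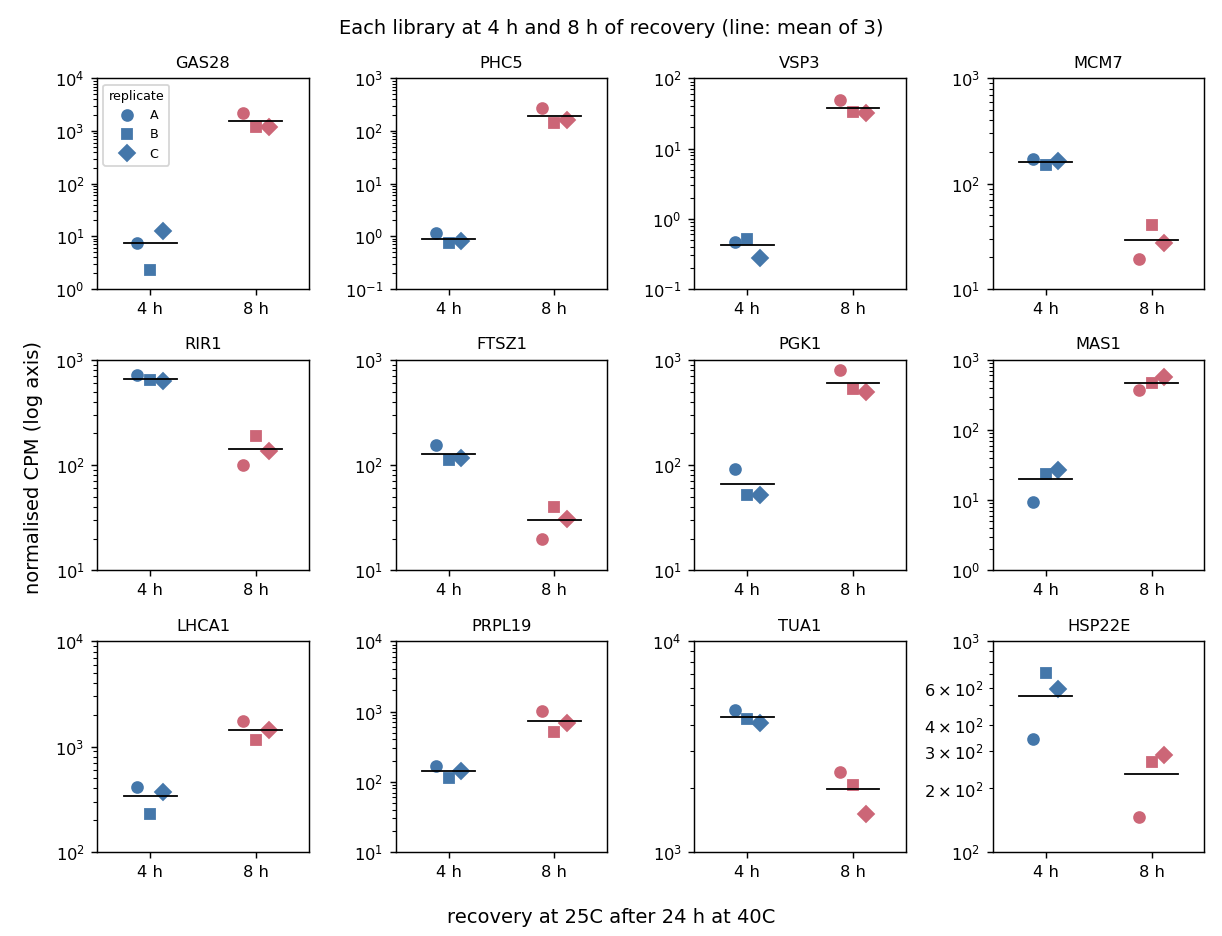
Normalised CPM (log axis) of 12 genes in each of the 3 libraries at 4 h and at 8 h of recovery after 40C; marker shape gives the replicate and the line the mean. GAS28 goes from a range of 2.34 to 12.6 CPM to a range of 1200 to 2196 CPM, MCM7 from 149 to 171 down to 19.4 to 40.9, and no gene shown has a library at 8 h inside the 4 h range.

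The same libraries were also set against pre-heat to place the interval. These comparisons share libraries with it, so their values stand side by side and nothing is read from their likeness. At 4 h 3350 genes (21.6%) were called, of which 2149 (13.8%) were above pre-heat and 1201 (7.73%) below, and at 8 h 1586 (10.2%) were called, of which 1116 (7.18%) were above and 470 (3.02%) below. The median of the licensing list was 1.21 above pre-heat at 4 h, with 19 of 20 called higher, and -0.67 at 8 h, with 5 called lower. The median of the cell wall list was -1.82 at 4 h, with 15 of 35 called lower, and 1.67 at 8 h, with 27 called higher. GAS28 had a pre-heat mean of 217 CPM and stood 2.82 above it on the log2 scale at 8 h, and MCM7 with 71.7 CPM stood at -1.29.

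Antenna genes were still called below pre-heat at 8 h. The LHCA list stood at -2.87 at 4 h and -1.20 at 8 h, with 6 of 7 still called lower, and the LHCBM list at -3.18 and -1.65, with 8 of 9 called lower. The glyoxylate list stood at -2.99 and -0.85, and the Calvin-Benson list at -1.81 and -0.55. The median of the small heat shock list, in which each gene counts equally, remained above pre-heat, by 2.65 and 4.08. Its summed level went the other way, from 653 to 1296 CPM at 4 h to 366 to 588 CPM at 8 h. HSP22E stood 6.27 and 5.05 above pre-heat. Chloroplast ribosomal proteins stood at -1.42 and 0.22.

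In the interval before, 2 h to 4 h, 1443 genes (9.29%) were called, of which 1066 (6.86%) rose and 377 (2.43%) fell, and in the one after, 8 h to 24 h, 812 (5.22%) were called, of which 262 (1.69%) rose and 550 (3.54%) fell. The median of the cell wall list was 0.99 before and -1.16 after, with 13 of 35 falling after 8 h. The licensing list had medians of -0.16 before and 0.19 after with no call in either, and the glyoxylate list -1.33 and 0.60. In the LHCBM list 8 of 9 genes rose after 8 h.

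**Figure D3:**
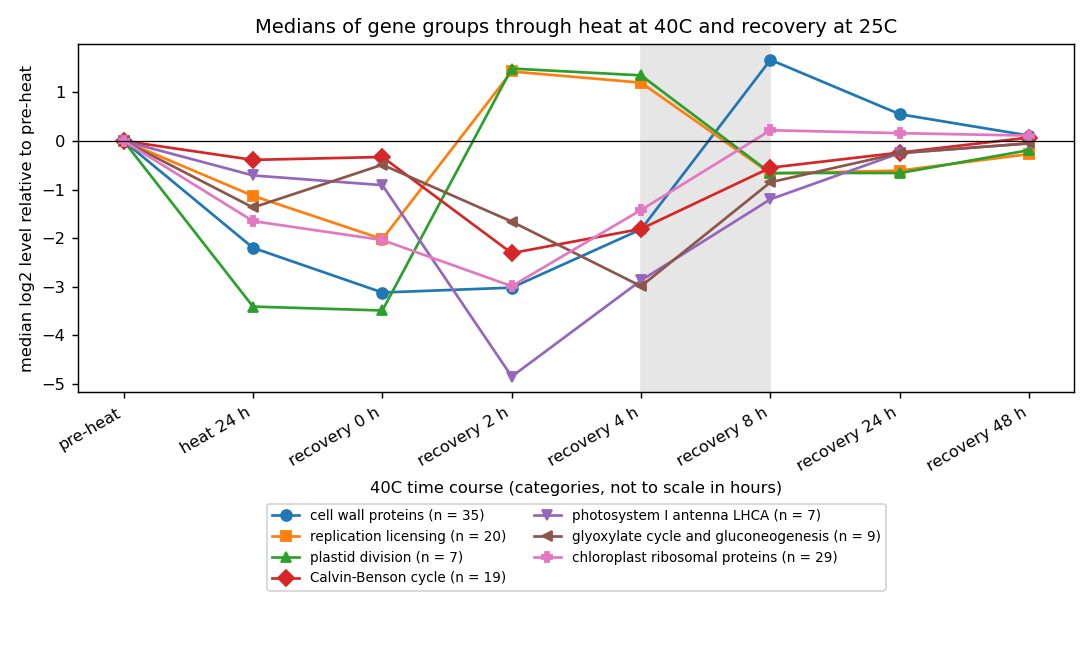
Median log2 level of 7 gene groups relative to the 40C pre-heat libraries (each gene's group mean CPM plus 0.05), from pre-heat to 48 h of recovery, with the interval from 4 h to 8 h shaded. Between these times the licensing median passes from 1.2 to -0.67 and the cell wall median from -1.82 to 1.67, and by 48 h all 7 medians lie between -0.27 and 0.11.

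The same interval was measured after 24 h at 35°C, in other libraries. Temperature and photobioreactor cannot be told apart between the treatments. There 1720 genes (11.1%) were called, of which 701 (4.51%) rose and 1019 (6.56%) fell. The difference of the 2 changes was tested gene by gene in the same model, with a call at adjusted p below 0.05 and a difference past 1 on the log2 scale. Of 15541 genes 774 (4.98%) were called, 616 (3.96%) with a higher and 158 (1.02%) with a lower change after 40°C. With library totals alone these were 474 and 250, and with limma on log2(TPM + 0.1) 466 and 488.

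Cell wall proteins held the clearest contrast in the change from 4 h to 8 h. None of the 35 rose after 35°C in this interval and 4 fell, with a median of -0.30. The difference was called higher after 40°C in 30 of 35. Levels after 35°C are not set against pre-heat here, and a rise before 4 h was not tested. The study reported many cell wall genes up-regulated in recovery from both treatments. GAS28 had a change of 0.35 after 35°C, a difference of 7.34 (edgeR adjusted p = 1.3e-06), VSP3 had -0.69, a difference of 7.17, and PHC71 had -2.82, a difference of 9.78. PHC19, PHC68 and PHC22 differed by 6.56, 6.53 and 6.22. Of 31 pherophorins 20 were called higher.

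Replication and division genes fell after both treatments. After 35°C, 18 of 20 licensing genes and 28 of 28 fork genes fell, with medians of -1.43 and -1.38, and the difference was called in none of the former and 1 of the latter. MCM7 fell by 1.49 after 35°C, a difference of -0.97 with adjusted p = 0.15, which does not show that the changes were alike. All 7 plastid division genes fell there too, with none called different, and 24 of 30 mitotic genes fell, with 1 called different, APC6 at -1.21.

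Genes of the Calvin-Benson cycle and of acetate use rose after both treatments, and some had a larger change after 40°C. In the Calvin-Benson cycle 9 of 19 rose after 35°C, with a median of 0.99, and 3 were called higher after 40°C: PGK1, SEBP1 and RCA1, by 1.58, 1.68 and 1.44. MAS1, PCK1, ICL1 and ACS3 rose by 1.66, 1.57, 1.56 and 1.06 after 35°C and differed by 2.90, 2.82, 2.57 and 1.83. Of 29 chloroplast ribosomal genes 1 rose after 35°C, against 4.51% of all genes, and 8 were called higher after 40°C, and of 10 photosystem I genes 3 rose and 5 were called higher.

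Lower changes after 40°C were fewer. PAP2, FRE1, HSP22E, AGG3, DEG11 and AST2 had differences of -2.82, -2.32, -2.15, -1.59, -1.45 and -1.32. HSP22E had a change of 0.92 after 35°C, not called, against its fall after 40°C. FRE1, a ferric reductase, rose by 3.73 after 35°C and had 1.42 after 40°C, at no more than 1.23 CPM. AGG3, a flagellar protein, overlapped between times after 40°C, at 25.4 to 47.7 CPM and 35.3 to 46.6 CPM, and rose by 1.83 after 35°C. DEG11, of a protease family, had -0.74 after 40°C and 0.71 after 35°C, neither called. TEF13 fell after both, by 2.41 after 40°C and by 5.20 after 35°C.

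**Figure D4:**
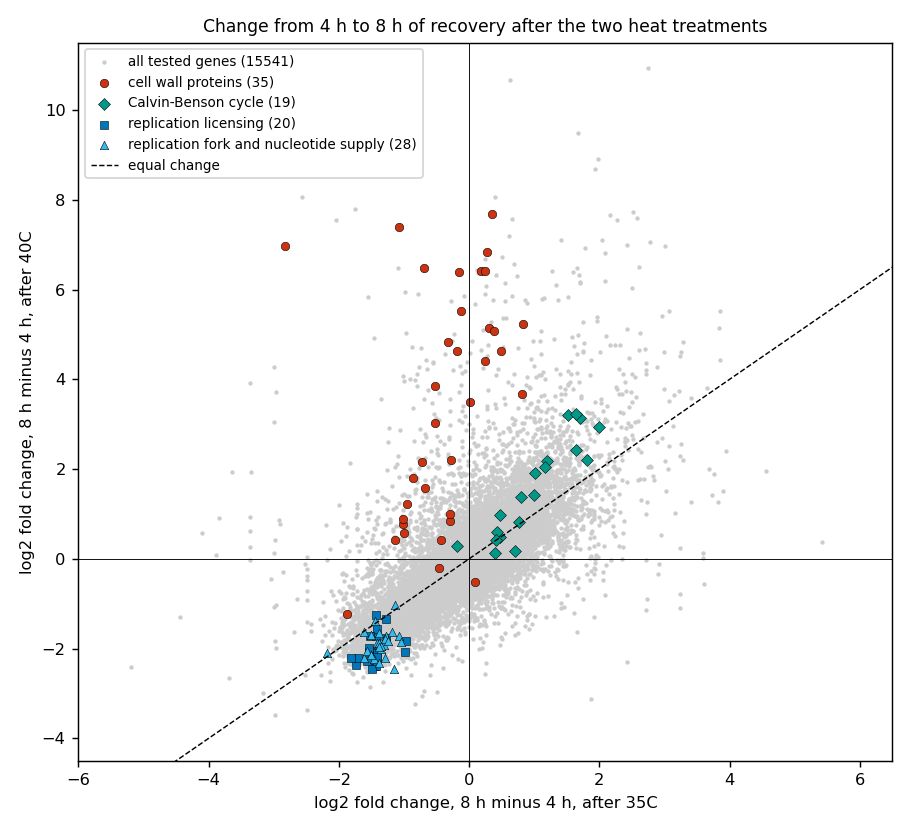
Log2 fold change from 4 h to 8 h after 35C (horizontal) and after 40C (vertical) for the 15541 genes tested, with 4 gene groups marked and a dashed line of equal change. Cell wall proteins rise up to 7.69 on the vertical axis with a median of -0.30 on the horizontal one, and the replication groups lie below 0 on both.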

How the data were processed

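RNA of CC-1690 cultures was sequenced in 90 libraries; 6 of them, 3 at 4 h and 3 at 8 h of recovery after 40°C, form the main comparison. Per its methods, the study trimmed and screened its reads (BBDuk, BBMap, with FastQC for quality), aligned them by STAR against genome v5.6 with a limit of 1 locus and 1 mismatch, and used HTSeq for counting; tool versions and the strand setting of HTSeq are not stated in those sources. Raw read counts per gene are what the authors put in the deposited count table, where 0 columns match no sample and 0 rows lack a gene. TPM was computed by the authors for each library from the counts, with 1 length per gene in all libraries and a common total. TPM entered the call threshold and the alternatives only.

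Genes with at least 10 reads in at least 9 libraries were tested (15541 of 17741). edgeR 4.0.16 (R 4.3.3) fitted 30 group means over all 90 libraries with TMM scaling and its quasi-likelihood test, and the difference between 40°C and 35°C was a contrast of the same fit. Calls used adjusted p below 0.05, a log2 fold change past 1 and, except for that difference, a TPM difference of at least 1, the study's thresholds. Named genes were the 12 largest rises and falls with a symbol and 3 of each without one (called, libraries not overlapping, mean TPM of at least 5), list members, CBLP, and the 6 largest differences from 35°C in each direction; ACS3 was added after its values were seen. Symbols came from the study's tables, and lists from its pathway sheets, protein terms or gene symbols. Members and lists were chosen with earlier results of these data known. Code was tested on simulated data. Alternatives were other scalings and filters, limma 3.58.1 on log2(TPM + 1) or log2(TPM + 0.1), DESeq2 1.42.0, fewer libraries, a replicate block and leaving out each library. Sequences were not used here.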

Additional observations from a re-analysis of the deposited data

Results flagged for a closer look

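Results below were flagged because the change from 4 h to 8 h after 40°C differed from that after 35°C in edgeR's test of the difference (adjusted p below 0.05 and a difference past 1 on the log2 scale); 774 genes did. Values are log2 differences of that change, 40°C minus 35°C. Higher and lower below refer to the change, not to levels.

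Cell wall and matrix genes were higher after 40°C: PHC71 by 9.78, GAS30 by 8.47, GAS28 by 7.34, VSP3 by 7.17, PHC19 by 6.56, PHC68 by 6.53, PHC22 by 6.22, PHC31 by 6.18, PHC4 by 5.65, PHC5 by 5.21, ISG-C4 by 4.46, PHC12 by 4.40, PHC15 by 2.99, UXS1 by 1.80 and GAS31 by 1.79. Among genes with a FAP symbol, FAP212, also in the cell wall list, stood at 4.42 and FAP310 at 3.02. The 66 FAP genes as a group had a median difference of 0.03, with 5 called higher and 2 lower. Genes without a symbol reached 10.03 for Cre09.g397623, 8.21 for Cre07.g354750 and 6.94 for Cre17.g717900. The first and the second of these had 10 and 1 reads in all at 4 h after 40°C.

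Carbon genes were higher for MCP28 (3.52), MAS1 (2.90), PCK1 (2.82), ICL1 (2.57), ACS3 (1.83), SEBP1 (1.68), PGK1 (1.58), RCA1 (1.44), SSS3 (1.21), GPM1 (1.13) and CAH3 (1.10). Pigment and photosystem genes were higher for CMS1 (1.77), CRD1 (1.69), GGPS (1.53), PSAO1 (1.48), LHCBM6 (1.30), PSAN (1.29), PETM (1.15), PDS1 (1.13), LHCA1 (1.04) and CHLI1 (1.01). PRPL19 (1.49), PRX1 (1.16) and GLN3 (1.01) were also higher, and TEF13 (2.79) fell less after 40°C.

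Differences were negative for PAP2 (-2.82), FRE1 (-2.32), HSP22E (-2.15), AGG3 (-1.59), DEG11 (-1.45), AST2 (-1.32), LHCBM8 (-1.24), APC6 (-1.21) and AOF6 (-1.04). The treatments ran in different photobioreactors, and temperature and photobioreactor cannot be told apart.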

How the results depend on the processing

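The 3076 calls came to 1539 (836 higher, 703 lower) when edgeR tested against a 2-fold change (glmTreat) and to between 3060 and 4457 under the other settings, and no called gene of the named ones changed sign under any of them. Leaving out each library gave 2736 to 3383 calls, 1482 to 2088 for 35°C and 547 to 907 for the difference. Values that changed sign were of uncalled genes. With library totals alone AGG3 was -0.15 and CBLP -0.05. With limma on log2(TPM + 1) AGG3 was -0.33, CBLP -0.28, FMG1-B -0.05 and FUS1 -0.06. With log2(TPM + 0.1) they were -0.34, -0.28, -0.08 and -0.10. With TPM rescaled after leaving out genes of very short implied length, an alternative chosen after seeing the data, AGG3 was -0.24, CBLP -0.19 and FUS1 -0.01, and 3460 genes were called. Without the TPM criterion 3994 genes were called. With log2(TPM + 0.1) 3794 of 4457 calls were lower, and for 35°C with library totals alone 416 were higher and 1514 lower. The cause of these shifts was not tested.

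The study harvested its cultures at successive times, so a culture may have been sampled at both 4 h and 8 h. Whether a replicate letter marks the same culture at both times is not stated. Same-letter correlations of deviations from the group means were 0.16, 0.06 and 0.02 for A, B and C. Other-letter ones ran from -0.17 to 0.16, and with 3 libraries per time these values cannot decide it. Letters were not used as pairing in the main test. With the letter as a replicate block 3087 genes were called, and 1748 and 905 for 35°C and the difference. Depth limits the lowest genes: those with 1 to 11 reads at 4 h have rises of uncertain size.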

Other observations

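Of 7 genes of iron assimilation 2 rose and 1 fell, against 9.16% and 10.6% of all genes tested. FEA1, a secreted iron-binding protein, went from 27.4, 51.3 and 57.8 CPM to 132, 155 and 189 CPM. The transporter IRT2 went from 5.44, 8.69 and 6.90 CPM to 3.24, 2.67 and 3.2 CPM. Of 29 genes of photosystem II assembly 11 rose and 1 fell, with PSB27, which binds photosystem II under assembly and repair, going from 68.7, 36.4 and 57.9 CPM to 190, 180 and 192 CPM, though 7 rose without replicate B at 4 h and 3 with library totals alone. Of 10 photoprotection genes 3 rose, against 9.16% of all genes tested, among them ELIP5, an early light-induced protein, by 1.48 on the log2 scale. With limma on log2(TPM + 1) 1 of the 10 rose, and after 35°C 3 rose as well. LHCSR3.1 had a log2 fold change of -0.52 and was not called. In nitrogen assimilation GLN3, a glutamine synthetase, was the 1 rise, by 1.71, and AOF6 fell by 1.72. HSP70H rose from 3.05, 2.01 and 4.20 CPM to 11.9, 9.65 and 8.08 CPM.

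The deposited TPM values rest on a fixed length per gene, and for 185 genes the length implied by counts and TPM was 5% of the median gene or less. LHCBM1, at 0.809% of the median, took 33.7% to 35.3% of all TPM in the pre-heat libraries with 1.23% to 1.29% of reads. It took 11.4% to 12.3% of TPM at 4 h and 15.1% to 15.9% at 8 h, with 0.260% to 0.293% and 0.407% to 0.442% of reads. The 185 genes together held 51.3% to 52.0%, 33.9% to 35.2% and 38.7% to 39.1% of TPM. For the called genes the TPM ratio of 8 h to 4 h was lower than the TMM fold change by a median of 0.62 on the log2 scale. The part of these lengths in that gap was not tested.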
